A study of Mus musculus with 15 samples.

Results

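The 8 genes described here, Pecam1, Cdh5, Kdr, Flt1, Tek, Tie1, Vwf and Eng, are used to recognise endothelial cells, the lining of blood vessels and of the heart chambers. They were taken by name. All 8 had at least 1 probe set annotated to a single symbol on the array, 11 probe sets in all, out of 8251 genes with such a probe set. Total RNA of mouse left ventricle had been hybridised to 15 one-colour arrays, in a series on hypertrophy under pressure overload. The hearts fell into 4 groups: 3 from female sham controls, 6 from male sham controls, 3 from females operated with TAC and 3 from males operated with TAC. TAC usually stands for transverse aortic constriction, a band around the aorta against which the left ventricle must pump. The sources used here give no strain, age or time after the operation. Separate animals are not stated in the labels, so p-values measure the spread between these samples.

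Endothelial cells are held together by the adhesion proteins encoded by Cdh5 and Pecam1. They sense growth factors through receptor kinases, among them the VEGF receptors encoded by Flt1 and Kdr. The angiopoietin receptor encoded by Tek and its partner encoded by Tie1 are receptor kinases too. Eng encodes endoglin, a co-receptor for ligands of the TGF-beta and BMP family, and Vwf encodes the clotting protein von Willebrand factor, stored in endothelium and platelets. The heart muscle is densely supplied with capillaries, so RNA of these genes is present in whole ventricle. In such bulk RNA, fewer endothelial cells and less RNA per endothelial cell cannot be told apart.

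Many endothelial promoters bind factors of the ETS family, which recognise the letters GGAA. RefSeq promoters on GRCm38.p6 were at hand for 5 of the 8 genes: Kdr, Flt1, Tek, Tie1 and Eng. What is called the ETS core here is the narrower GGAAG, searched on both strands in the 250 bases before each annotated start. It was found in 4 of the 5, where 64.1% of 32851 promoter windows of the same length hold it. Flt1, Tie1 and Tek are printed because they span the range, from 3 and 6 matches of GGAAG to none. The Tek window still holds GGAA without the added G, printed as ttcc because it lies on the other strand. Flt1 lies on the minus strand at chr5:147726012-147726261, Tie1 on the minus strand at chr4:118489850-118490099, and Tek on the plus strand at chr4:94739039-94739288. Each is written 5′ to 3′ in the direction of its gene, with matches to the ETS core on either strand in capitals.
Flt1: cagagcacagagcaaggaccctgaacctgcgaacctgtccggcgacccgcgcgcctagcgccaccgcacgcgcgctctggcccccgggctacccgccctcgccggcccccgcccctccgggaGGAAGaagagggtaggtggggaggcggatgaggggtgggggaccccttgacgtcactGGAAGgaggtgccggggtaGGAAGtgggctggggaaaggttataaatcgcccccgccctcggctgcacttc
Tie1: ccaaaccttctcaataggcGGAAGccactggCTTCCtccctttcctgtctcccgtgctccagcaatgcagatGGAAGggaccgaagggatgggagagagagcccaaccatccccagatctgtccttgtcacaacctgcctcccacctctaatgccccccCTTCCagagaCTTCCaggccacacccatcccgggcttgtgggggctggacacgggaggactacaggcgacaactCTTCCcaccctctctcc
Tek: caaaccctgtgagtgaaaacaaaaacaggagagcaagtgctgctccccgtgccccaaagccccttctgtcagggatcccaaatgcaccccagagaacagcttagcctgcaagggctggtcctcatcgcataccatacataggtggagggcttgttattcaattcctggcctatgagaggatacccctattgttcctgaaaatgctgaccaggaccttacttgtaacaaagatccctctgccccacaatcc

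The 3 matches of Flt1 began 128, 71 and 52 bases before the start, all on the gene's strand, and 10.7% of windows hold 3 or more. The last of them is part of the longer form AGGAAGT, which 7.69% of windows hold on either strand and which was also found in the Eng window. Flt1 was also the one window of the 5 with a cAMP response element, TGACGTCA, at 81 bases, and with the TATA letters TATAAA, at 31 bases. These occur in 1.55% and 12.4% of windows. Tie1 had 6 matches to the core, 2 on the gene's strand and 4 on the other, where 0.344% of windows hold 6 or more. Eng had 2 matches and Kdr had 1. A match is a description of the letters and was not tested as a binding site.

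Array medians lay between 21.3 and 26.7 intensity units, an arbitrary linear scale, and precision is limited by how many arrays there were. The lowest median was that of female TAC 1, which with male sham 7 correlated least with the other arrays. Values under 20 were treated as a floor, which held between 42.4% and 48.4% of an array's probe sets. Of 10 cardiomyocyte genes 9 were on the array and all 9 passed the filter, and Myl2, the ventricular light chain, was at 6313.5 or more on every array. Of the 8 markers, Pecam1, Cdh5, Eng and 1 probe set each of Flt1 and Vwf were above the floor on all 15 arrays. Intensities of different probe sets are not comparable with each other, so no probe set's level is read against that of another.

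None of the endothelial markers was called changed by TAC. A linear model with limma, adjusted by Benjamini-Hochberg over 7453 probe sets, called 0 of the 10 member probe sets that passed the filter on dim values, where it called 0.322% of all tested. At an unadjusted p under 0.05 there was 1 of 10, a probe set of Flt1, where the share over all was 7.51%. The exact permutation test within each sex called 0 of the 10, with 1 at an unadjusted p under 0.05, where it called 0% and 8.09% of all tested. With 1680 relabellings its p could not fall under 0.000595, and its smallest adjusted p over all probe sets was 0.120. A lone p of that size cannot reach an adjusted 0.05 over 7453 probe sets, so its lack of calls adds little. The median log2 change of the 10 was -0.02 and that of all tested probe sets was -0.03. In these 10 probe sets 4 values were above 0 and 6 below, and 6 were above after the arrays were centred on their medians. The 95% intervals of the averaged effect reached from 0.726-fold at the lowest to 1.75-fold at the highest, on values floored at 20.

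**Figure D1:**
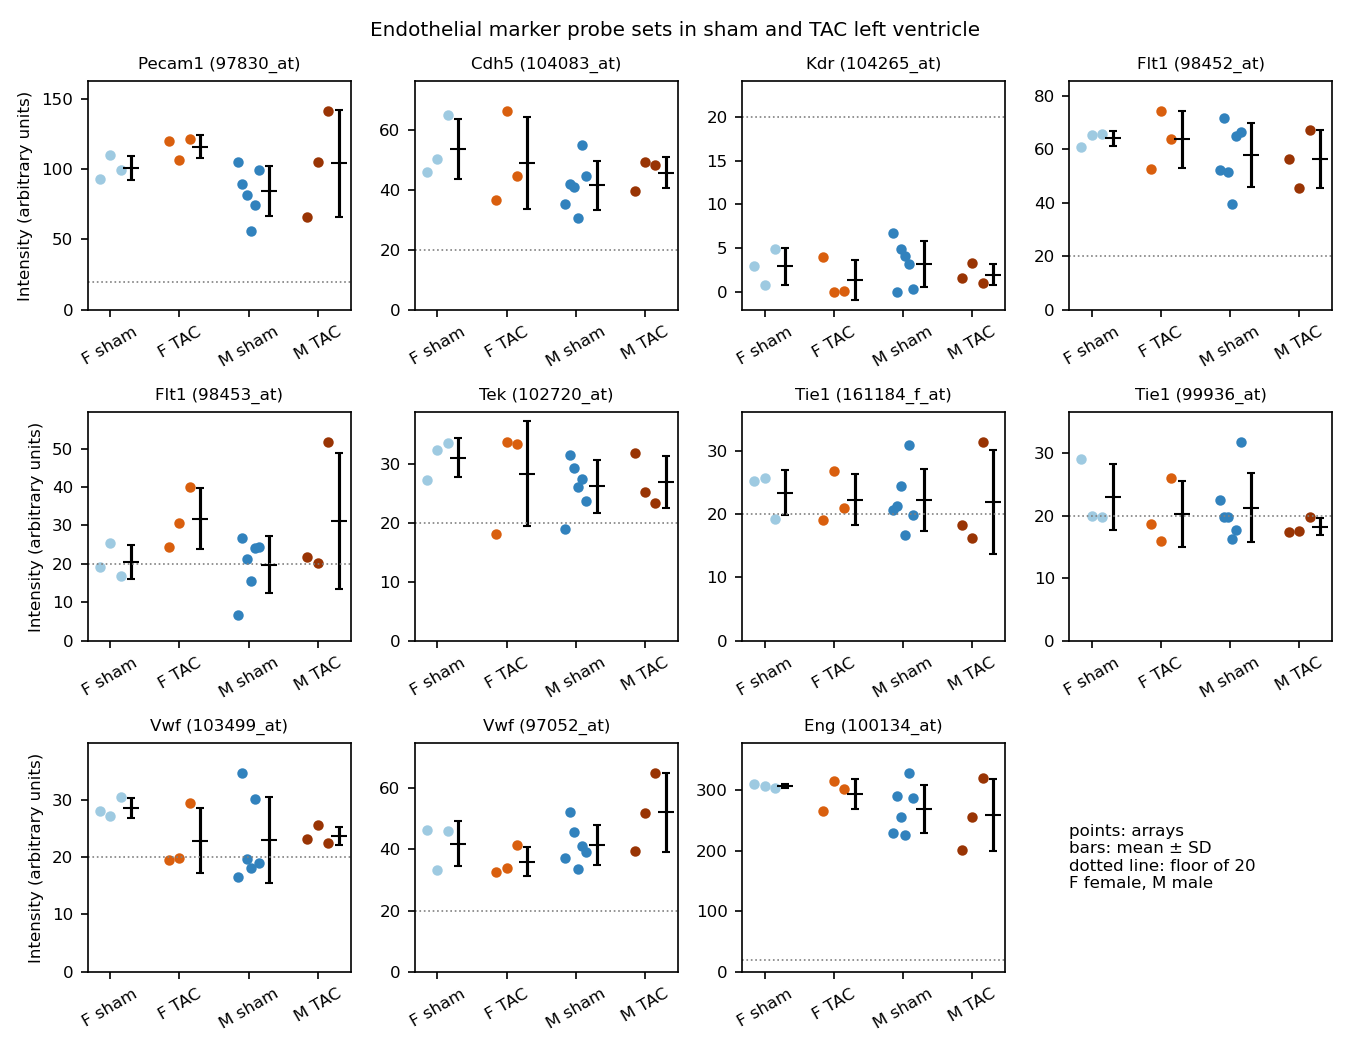
Deposited intensity in arbitrary units of the 11 endothelial marker probe sets, with 1 point for each of the 15 arrays, grouped by sex and operation. Bars give the mean ± SD, and the dotted line is the floor of 20. The Kdr values lie between 0 and 6.75, under the floor on all arrays, while TAC and sham points overlap in each sex for every probe set shown.

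The adhesion genes come first. Pecam1, which encodes the junction protein CD31, read 92.7, 99.2 and 109.7 intensity units in the female sham hearts and 106.3, 120.1 and 121.7 in the female TAC hearts. The male sham hearts ran from 56.2 through a median of 85.5 to 105.1, and the male TAC hearts read 65.7, 105.4 and 141.1. Female TAC had the highest mean, 116.0 ± 8.5 (SD, n = 3), and male sham the lowest, 84.3 ± 17.8 (SD, n = 6). The TAC and sham ranges overlapped in both sexes. Its log2 change averaged over the sexes was 0.24 ± 0.16 (SE), a ratio of 1.18 with a 95% interval of 0.928 to 1.49, and limma gave an adjusted p of 0.804. This was the largest value above 0 among the members after Flt1, and it was 0.11 without male TAC 6 and 0.38 without male TAC 4.

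Cdh5, which encodes VE-cadherin, the adhesion protein of endothelial junctions, read 45.9, 50.2 and 65.0 in female sham and 36.5, 44.6 and 66.2 in female TAC hearts. In males the sham hearts ran from 30.7 through 41.4 to 55.0, and the TAC hearts read 39.7, 48.4 and 49.1. The highest and the lowest female values were both in the TAC group, and the male TAC values lay inside the sham range. The averaged log2 change was 0.00 ± 0.15 (SE), with an interval of -0.32 to 0.32 and an adjusted p in limma of 0.999. The order of the group means was female sham, female TAC, male TAC, male sham, from 53.7 ± 9.99 to 41.45 ± 8.32 (SD), and each neighbour differed by less than the SD within the groups.

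Of the VEGF receptors, Flt1 was measured by a pair of probe sets that did not read alike. The brighter, 98452_at, gave 60.9, 65.4 and 65.8 in female sham hearts and 52.7, 63.9 and 74.1 in female TAC hearts. Male sham hearts ran from 39.7 through 58.7 to 71.5, and male TAC hearts read 45.6, 56.3 and 67.3. The groups overlapped throughout, and the averaged log2 change was -0.02 ± 0.14 (SE), with an interval of -0.32 to 0.27 and an adjusted p in limma of 0.982.

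The dimmer Flt1 probe set, 98453_at, read 16.9, 19.1 and 25.5 in female sham and 24.4, 30.6 and 40.1 in female TAC hearts. Male sham hearts ran from 6.7 through 22.7 to 26.7, and male TAC hearts read 20.3, 21.7 and 51.6. All 6 TAC values were above 20, while 4 of the 9 sham values were below it. In each sex 1 or more TAC values lay within the sham range. The averaged log2 change was 0.42 ± 0.18 (SE), a ratio of 1.34 with an interval of 1.02 to 1.75. It was not called, with an adjusted p of 0.603 in limma and 0.607 in the exact permutation test, where the unadjusted p values were 0.0348 and 0.0482. Male TAC 6 carried much of the value in males, since the averaged change was 0.20 and the male change -0.11 without it.

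**Figure D2:**
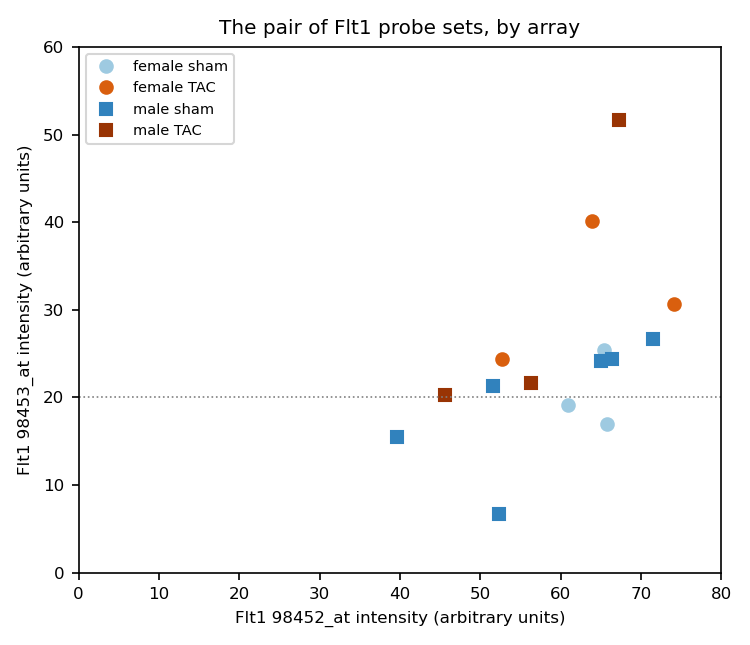
Intensity of the Flt1 probe set 98453_at against that of 98452_at, in arbitrary units, with 1 point per array. The dotted line marks the floor of 20. Along the horizontal axis TAC and sham arrays overlap, while the highest 3 values on the vertical axis, 30.6, 40.1 and 51.6, are all from TAC hearts.

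How far the changes of the 2 Flt1 probe sets lay apart was worked out within arrays. This comparison was chosen after their values were seen, so it is a description with no test. The log2 change of the dimmer Flt1 probe set exceeded that of the brighter by 0.45 (0.54 in females and 0.35 in males). It ranged over 0.30 to 0.55 when any single array was dropped, and was lowest without male TAC 6. The size depends on how low values are treated, since it was 0.66 with a floor of 3.09 and 0.36 when 20 was added to every value and no floor was set. For Tie1 the corresponding value was -0.08 and for Vwf -0.21. Which transcripts of Flt1 each probe set binds is not given in the files, so the value is a difference between probe sets.

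Kdr, the main signalling receptor for VEGF, could not be followed. Its probe set 104265_at read 0.83, 3.03 and 4.95 in female sham and 0, 0.19 and 4.00 in female TAC hearts. Male sham hearts ran from 0 through 3.65 to 6.75, and male TAC hearts read 1.06, 1.63 and 3.33. All 15 values were below the floor and 2 of them were listed at 0, so no fold change is given. The low reading belongs to this probe set, and the level of Kdr RNA in these ventricles stays unmeasured.

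The probe sets of Tek and Tie1 were near the floor. Tek, which encodes Tie2, the receptor that binds angiopoietins, read 27.3, 32.4 and 33.5 in female sham and 18.0, 33.3 and 33.7 in female TAC hearts. In males the sham hearts ran from 18.9 through 26.8 to 31.5, and the TAC hearts read 23.4, 25.3 and 31.8. The one low female TAC value was that of female TAC 1, the array with the lowest median. The averaged log2 change of Tek was -0.05 ± 0.14 (SE), with a ratio interval of 0.787 to 1.18 and an adjusted p in limma of 0.958.

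Tie1, an orphan receptor that pairs with Tie2, had 2 probe sets. The probe set 161184_f_at read 19.2, 25.2 and 25.7 in female sham, 19.0, 21.0 and 26.8 in female TAC and 16.2, 18.3 and 31.3 in male TAC hearts, and 16.6 to 30.9 with a median of 21.0 in male sham hearts. The other, 99936_at, was below the floor on 10 of the 15 arrays, including all 3 male TAC arrays. The averaged log2 changes were -0.01 ± 0.14 and -0.10 ± 0.13 (SE), with adjusted p in limma of 0.992 and 0.911. Values under the floor count as 20 in both, and with a floor of 3.09 in its place the change of 99936_at was -0.19.

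Vwf also had 2 probe sets. The brighter, 97052_at, read 33.3, 45.9 and 46.4 in female sham and 32.7, 33.9 and 41.3 in female TAC hearts. Male sham hearts ran from 33.7 through 40.05 to 52.2, and male TAC hearts read 39.3, 51.9 and 64.8. The female TAC mean of 36.0 ± 4.7 (SD, n = 3) was the lowest of the 4 groups and the male TAC mean of 52.0 ± 12.8 (SD, n = 3) the highest. The log2 change was -0.21 ± 0.20 (SE) in females and 0.31 ± 0.18 (SE) in males, with adjusted p in limma of 1.00 and 0.883. The female effect minus the male effect was -0.52 ± 0.27 (SE), with an interval of -1.09 to 0.04 and an adjusted p in limma of 1.00. It was the largest such difference among the member probe sets.

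The dimmer Vwf probe set, 103499_at, read 27.1, 28.0 and 30.4 in female sham and 19.4, 19.8 and 29.4 in female TAC hearts. Male sham hearts ran from 16.5 through 19.3 to 34.6, and male TAC hearts read 22.5, 23.1 and 25.5. The log2 change was -0.33 ± 0.22 (SE) in females and 0.01 ± 0.19 (SE) in males, with a difference of -0.34 ± 0.29 (SE) between them. Neither difference was called. The male value of 103499_at changed sign in 7 of 20 alternatives, between -0.04 and 0.12. The male value of 97052_at was 0.14 without male TAC 6 and 0.50 without male TAC 4. Its female value was -0.37 without female sham 2 and -0.08 with array weights. The female value of 103499_at was -0.51 without female TAC 3 and -0.07 with array weights. Averaged over the sexes the changes were 0.05 ± 0.13 for the brighter and -0.16 ± 0.15 (SE) for the dimmer.

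Eng had the tightest measurement. It read 302.8, 306.1 and 310.5 in female sham and 265.9, 301.0 and 314.1 in female TAC hearts. Male sham hearts ran from 225.6 through 271.1 to 327.4, and male TAC hearts read 200.5, 255.0 and 319.4. The SD was 1.25% of the mean in female sham and 23.0% in male TAC hearts. The averaged log2 change was -0.07 ± 0.12 (SE), a ratio of 0.954 with an interval of 0.803 to 1.13, and the adjusted p in limma was 0.930. No other member had so small an SE.

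**Figure D3:**
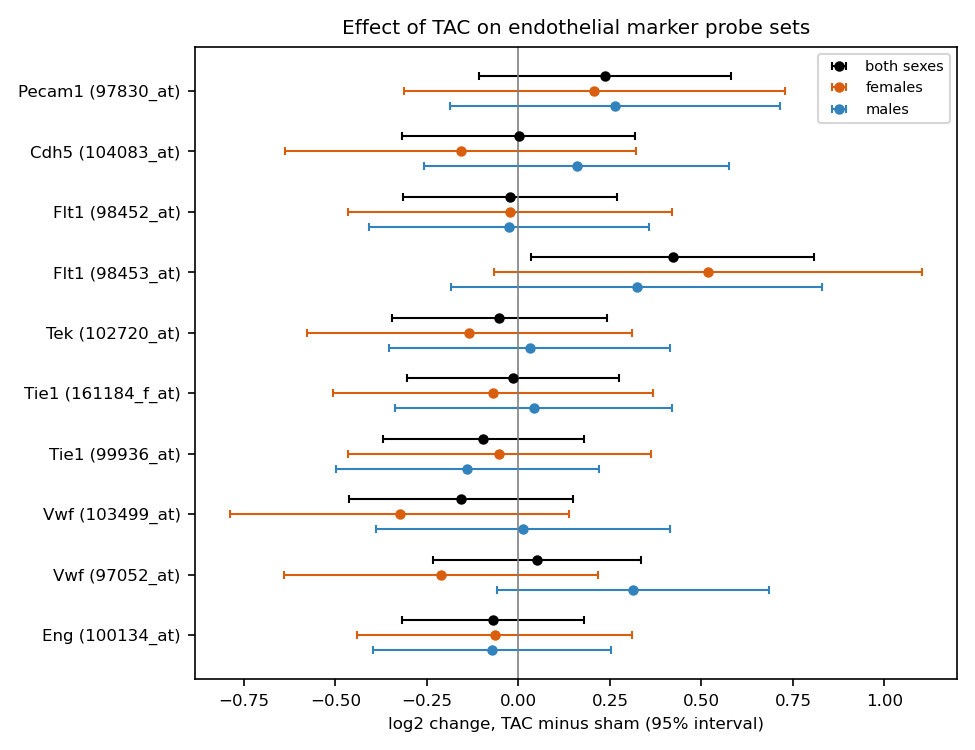
Log2 change (TAC minus sham) with its 95% interval for the 10 member probe sets tested, averaged over the sexes and in each sex. The averaged intervals include 0 for 9 of 10, the exception being the Flt1 probe set 98453_at at 0.42.

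Within each sex no member was called either. In females limma called 0 of 10 member probe sets, with 0 at an unadjusted p under 0.05, where the shares over all probe sets were 0.0805% and 4.59%. In males it also called 0 of 10, with 0 unadjusted, against 0.134% and 6.2%. The median of the 10 changes was -0.07 in females and 0.04 in males, beside -0.04 and -0.01 over all probe sets. Single arrays turned both, as the female median of the 10 was 0.02 without female TAC 1 and -0.16 without female TAC 2, and the male median was -0.05 without male TAC 6, -0.01 without male sham 4 and 0.12 without male TAC 4. The interaction of operation and sex was called for 0 of 10 members, with 0 unadjusted, and for 0% of all probe sets, with 2.56% unadjusted. TAC and sham intensities overlapped for all 11 member probe sets in both sexes. Over the 7453 tested probe sets, which leave out that of Kdr, 8.88% did not overlap in females and 3.17% did not in males. A count of 0 among so few members is near those shares.

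Without the operation, the markers read higher in females in 9 of the 10 probe sets, with a median log2 difference of 0.19 (female minus male), where the median over all probe sets was 0.05. After median centring it was 7 of 10, with a median of 0.14 and 0.00 over all. limma called 0 of the 10, with 0 at an unadjusted p under 0.05, and 0% of all probe sets, with 4.71% unadjusted. Cdh5 had the largest difference, 0.38 ± 0.20 (SE), with 53.7 ± 9.99 (SD, n = 3) in female and 41.45 ± 8.32 (SD, n = 6) in male sham hearts and an adjusted p of 0.974. It was 0.24 without female sham 3, below the 0.29 of Pecam1 without that array. Male sham 7 and male sham 4 were the lowest of the 9 sham hearts for 6 and 3 of the 10 probe sets, and without male sham 7 and female TAC 1 the median difference was 0.11. The array of male sham 7 also had the lowest median of the sham arrays, 23.8.

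The hearts were then compared for markers that went up and down together, after each array was centred on its median. The 4 groups of sex and operation were pooled and their means were not taken out, so differences between groups enter each r. Of 45 pairs of member probe sets, 31 had a Pearson r above 0 over the 15 arrays, and the median r was 0.17. Before adjustment 5 pairs had a permutation p under 0.05, and after Benjamini-Hochberg over the 45 pairs 0 did, for r or for Spearman's rho (smallest adjusted p of 0.381 and 0.425). The highest was that of Flt1 98452_at with Eng, with r = 0.60 (permutation p = 0.0198, adjusted 0.381) and rho = 0.56 (permutation p = 0.0344, adjusted 0.425). Without the 2 arrays farthest from the Flt1 median r was 0.55. Next was Pecam1 with Flt1 98453_at, with r = 0.57 (permutation p = 0.0254, adjusted 0.381) and rho = 0.49 (permutation p = 0.0670, adjusted 0.502). That r was 0.60 without the 2 arrays farthest from the Pecam1 median, and 0.04 in the 9 sham hearts. Cdh5 with Eng had r = 0.55 (permutation p = 0.0335, adjusted 0.381) and rho = 0.53 (permutation p = 0.0472, adjusted 0.425), and r = 0.64 without the 2 farthest arrays.

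In the 9 sham hearts alone, Cdh5 and Eng had r = 0.79 (exact p = 0.0104, adjusted 0.335) and rho = 0.82 (exact p = 0.0108, adjusted 0.485). The sexes were pooled here too. Before centring, Cdh5, Flt1 98452_at and Eng read 0.38, 0.18 and 0.20 higher in log2 in female sham hearts. The part of sex in these r was not tested. Flt1 98452_at and Eng had r = 0.77 (exact p = 0.0149, adjusted 0.335) and rho = 0.53 (exact p = 0.148, adjusted 0.830). Of the 45 pairs 3 passed an unadjusted exact p of 0.05 in sham hearts and 0 passed after adjustment. Pecam1 and Eng had r = 0.51 over all arrays (permutation p = 0.0508, adjusted 0.381), which fell to 0.05 without the 2 arrays farthest from the Pecam1 median, so that it rests on those arrays. Its rho was 0.33 (permutation p = 0.236, adjusted 0.757). The Flt1 probe sets had r = 0.45 with each other (permutation p = 0.0889, adjusted 0.563) and rho = 0.61 (permutation p = 0.0186, adjusted 0.425), and r = 0.42 without the 2 farthest arrays. For the pair of Tie1 probe sets r was -0.26 (permutation p = 0.353, adjusted 0.690), and for that of Vwf 0.34 (permutation p = 0.214, adjusted 0.672). Without centring the median r over the 45 pairs was 0.27.

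**Figure D4:**
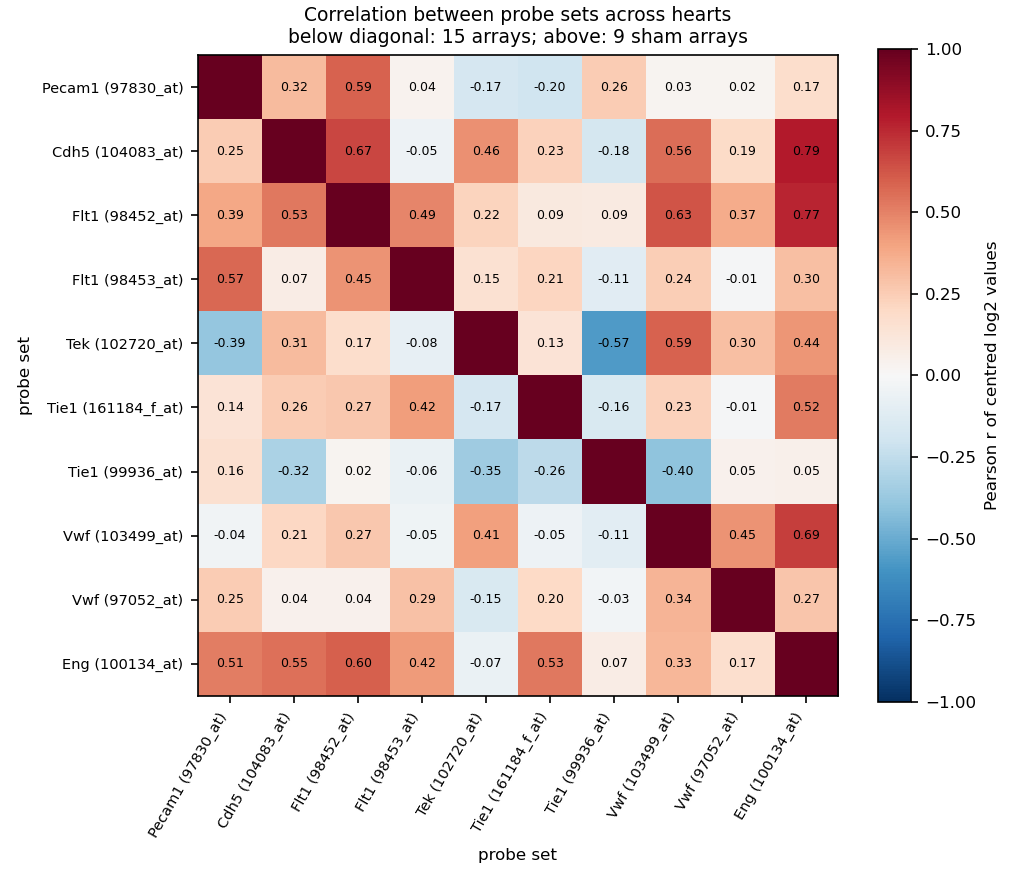
Pearson r of log2 intensity between the 10 member probe sets, each array centred on its median. Cells below the diagonal use the 15 arrays and cells above it the 9 sham arrays, with the sexes pooled in both. In sham the strongest pairs join Eng with Cdh5 (0.79) and with Flt1 98452_at (0.77). Over the 15 arrays they are Eng with Flt1 98452_at (0.60), Pecam1 with Flt1 98453_at (0.57) and Eng with Cdh5 (0.55).

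The probe sets most like each member over the 15 arrays were then listed, on the same centred values, out of 6620 or 6621 with a single symbol. They were picked for their r, so no test is given. Closest to Pecam1 were Slc6a2, Sirpa and Actc1, with r from 0.84 to 0.85. Closest to Cdh5 were Rin2, Tmod3 and Rac1, with 0.82 to 0.88. Flt1 98452_at was closest to Ube2d3, Rps28 and Atp6v0a2, with 0.89 to 0.90, and Eng to Tuba8, Ubl3 and Tomm7, with 0.85 to 0.86. Tek was closest to Vipas39, Olfr1509 and Rnf2, with 0.72 to 0.75, Tie1 161184_f_at to Trir, Aldoa and Immt, with 0.80 to 0.84, and Vwf 97052_at to Lrp10, Ly6g and Ptpn1, with 0.77 to 0.82. No member was among the 3 closest of another member. With 3 taken from so many candidates this was likely beforehand, so nothing is drawn from it.

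A wider list of 48 genes enriched in endothelium had no calls either. Of these 37 were on the array and 23 passed the filter. limma called 0 of 23, where it called 0.322% of all tested, so a count of 0 is near that share. At an unadjusted p under 0.05 there were 0 above and 1 below, beside 2.86% and 4.66% of all probe sets in those directions. The changes were above 0 for 11 and below 0 for 12, with a median of 0.00. The smallest p was that of Vcam1, an adhesion molecule for leukocytes, with -0.39 ± 0.16 (SE) and an adjusted p of 0.580. Its intensity was 33.3 ± 7.3 (SD, n = 9) in sham and 25.1 ± 4.7 (SD, n = 6) in TAC hearts. Next was Cd34, a sialomucin of capillary endothelium and progenitor cells, with 0.17 ± 0.08 (SE), an adjusted p of 0.677 and intensities of 97.8 ± 6.7 and 111.8 ± 7.7 (SD, same n).

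The ligands of the member receptors were not called either, 0 of 6 tested among 11 on the array, with 1 higher at an unadjusted p under 0.05 and a median of -0.11, beside 0.322% called, 2.86% higher unadjusted and a median of -0.03 over all probe sets. Tgfb3, a ligand whose receptor complex includes endoglin, had 0.30 ± 0.12 (SE, adjusted p = 0.553 in limma), and Vegfb, a ligand of Flt1, had -0.18 ± 0.10 (SE, adjusted p = 0.740). Vegfb read 365.1 ± 36.6 (SD, n = 9) in sham and 322.8 ± 25.8 (SD, n = 6) in TAC hearts. Vegfa, the ligand of both Flt1 and Kdr, had -0.11 ± 0.13 (SE), and Angpt1, the agonist of Tie2, -0.16 ± 0.12 (SE). Pgf, Vegfc and Vegfd were below the floor on all arrays.

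Among receptors that work with the members, 0 of 4 tested were called, with 1 higher at an unadjusted p under 0.05 and a median of 0.04, against the same 0.322%, 2.86% and -0.03. Bmpr2, the type II BMP receptor, had 0.43 ± 0.15 (SE) and an adjusted p of 0.441 in limma, with 24.8 ± 4.8 (SD, n = 9) in sham and 34.6 ± 7.3 (SD, n = 6) in TAC hearts. Nrp1, a co-receptor for VEGF, had -0.21 ± 0.14 (SE, adjusted p = 0.808). Of the junction proteins that work with Cdh5 or Pecam1, 0 of 7 tested were called, with 0 unadjusted and a median of -0.06. Over all probe sets these were 0.322%, 7.51% and -0.03. Tjp1, a tight junction scaffold, had -0.14 ± 0.11 (SE, adjusted p = 0.814 in limma), and Ctnnb1, the beta-catenin that binds cadherins, 0.12 ± 0.11 (SE, adjusted p = 0.872).

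**Figure D5:**
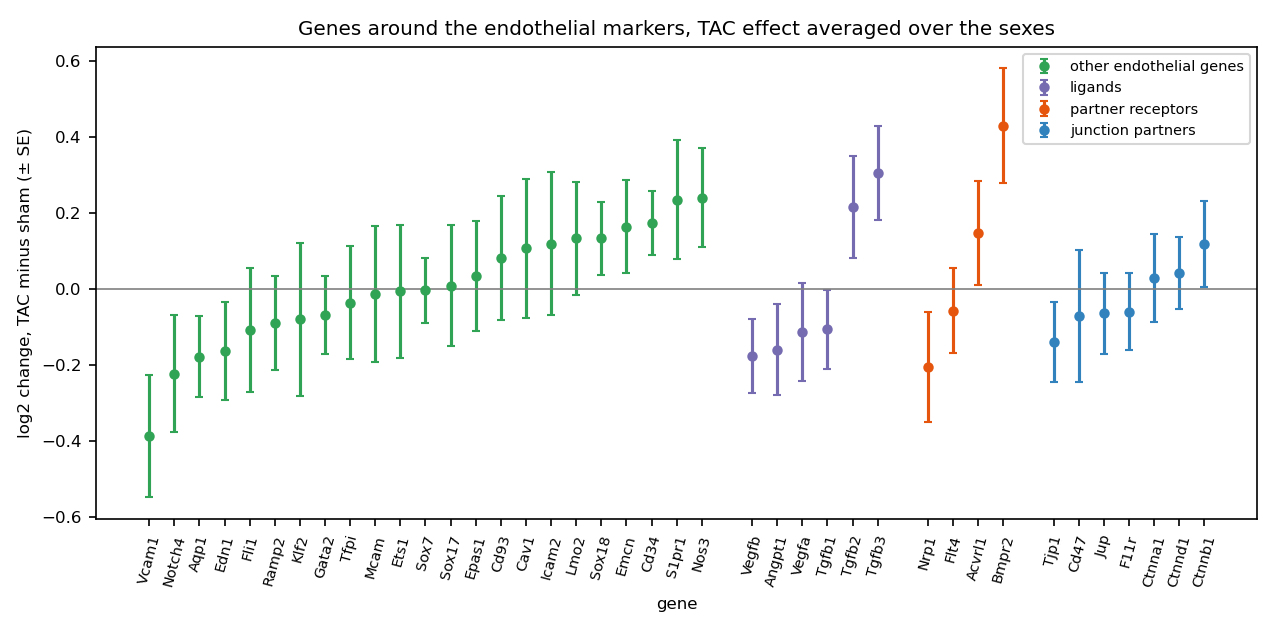
Log2 change (TAC minus sham, averaged over the sexes) ± SE for the tested genes of the wider endothelial list, ligands, partner receptors and junction partners, ordered by value within each list. The values run from -0.39 for Vcam1 to 0.43 for Bmpr2, and 0 of them were called.

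Other cells can carry some of these RNAs. Of 9 platelet genes 4 were on the array. Pf4 was below the floor on all arrays, and Gp9 read 210.0 ± 21.6 (SD, n = 9) in sham and 216.8 ± 39.0 (SD, n = 6) in TAC hearts. The summed intensity of the 4, most of it from Gp9, ranged over 233.6 to 270.7 in female sham, 197.6 to 303.6 in female TAC, 236.1 to 289.4 in male sham and 241.6 to 303.0 in male TAC hearts. Of 12 leukocyte genes 11 were on the array, and the pan-leukocyte gene Ptprc was below the floor on all arrays. Their sums ranged over 472.6 to 559.7, 458.0 to 742.0, 498.1 to 635.7 and 518.7 to 557.7 in the same order. A sum follows its brightest probe sets and is no measure of cell content. Here those were of Cd14, C1qc and C1qa, with means of 150.1, 103.7 and 95.5 in sham hearts. The TAC and sham ranges of both sums overlapped, and limma called 0 of the 2 platelet and 0 of the 7 leukocyte genes tested, with 0 unadjusted in either list. Over all probe sets the shares were 0.322% called and 7.51% unadjusted, so counts of 0 in lists this short are near those shares.

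Blood genes were also read by sex, beside the female and male values of Vwf. Gp9 had a log2 change of -0.13 in females and 0.18 in males, and Gp5 had -0.21 and 0.07. Of the 4 red cell genes on the array, the globin genes Hba-a1 and Hbb-b2 had -0.27 and -0.42 in females and 0.20 and 0.29 in males. Alas2 had -0.06 and -0.03, and Slc4a1 had 0.01 and -0.19. None of these 6 genes was called in either sex by limma, where 0.0805% of all probe sets were in females and 0.134% in males. The summed intensity of the 4 red cell genes ranged over 965.0 to 1831.3 in female sham, 927.0 to 1356.3 in female TAC, 1075.4 to 1623.2 in male sham and 1368.3 to 1824.6 in male TAC hearts. Most of it came from Hba-a1, with a mean of 1085.1 in sham hearts. The part of blood in the Vwf values was not tested.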

How the data were processed

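Total RNA of 15 left ventricles was measured on one-colour arrays. The table deposited by the authors holds linear probe-set intensities. The sources used here do not name the software, scaling or background step. Of 12488 probe sets, 66 controls were left out. Values were floored at 20, log2 was taken, and the 60% with the highest mean (7453) were tested. Names came from the platform annotation, updated by Entrez number through a GRCm38.p6 RefSeq table (10833 probe sets with 1 symbol, 396 with several, 1193 with none). All 15 arrays entered 1 model in limma 3.58.1 (R 4.3.3) with a mean for each of 4 groups. Benjamini-Hochberg adjustment ran over the 7453, with calls at 0.05. The fit was tested on simulated data. Errors are SE unless SD is stated.

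Members and lists were chosen with earlier results of these data known. All probe sets of the members are reported, and other genes by their brightest probe set. From the other lists the rule names the genes called, or else the 2 of smallest p in the endothelial, ligand, receptor and junction lists, and the 3 probe sets of highest r with each member's brightest. Further genes named (Vegfa, Angpt1, Pf4, Gp9 and Ptprc among them) were chosen for their role after their values were seen.

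The titles number sham and TAC hearts alike. Same-numbered deviations from the group means correlated at 0.244, 0.270 and 0.117 in females, all over 0.1, and at 0.0641, -0.0828 and 0.0136 in males. The number was therefore run as a block in both sexes and in females alone, as alternatives.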

Additional observations from a re-analysis of the deposited data

How the results depend on the processing

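No member probe set was called under any alternative run, where limma called at most 68 of all probe sets. With so few calls, 0 of 10 is near the share over all and says little about the members. Over 1071 values of the 10 member probe sets in 5 comparisons the smallest adjusted p in limma was 0.130. Of these, 119 changed sign with no call on either side. The calls over all probe sets moved with the setting. For the averaged effect limma called 24, and 45 after quantile normalization, 42 after median centring, 68 with array weights, 10 with a floor at the 10th percentile and 13 without the filter. The exact permutation test called 0 (603 unadjusted), and its p could not fall under 0.000595, which limits its calls. With a replicate block in females and males limma called 8. Leaving out 1 array gave 12 (without male TAC 5) to 29, with 14 or 15 without any female sham array, male sham 6 or female TAC 2. In females limma called 6, and 10 with trended and robust eBayes, 36 with array weights, 3 with the block in both sexes and 2 in a fit of the female arrays alone, and 2 (without female sham 1) to 8 without 1 array. In males it called 10, and 16 with trended and robust eBayes, 6 with an offset of 20 or without the 2 arrays least correlated with the others, 4 without the filter, and 3 with the lower floor or the block in both sexes. Without 1 male array the count was 3 (without male TAC 5) to 9. For the sex difference in sham hearts limma called 0 probe sets, with 351 at an unadjusted p under 0.05. It called 2 without the filter or with array weights and 1 with trended and robust eBayes. The cause was not tested. The block changed no call of a member.

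The Flt1 probe-set difference, added after seeing the data, was 0.66 with the lower floor, 0.36 with an offset and 0.30 without male TAC 6, beside 0.45. The change of Flt1 98453_at itself was 0.63 with the lower floor. Probe sets near the floor (both of Tie1, Tek, Vwf 103499_at, Flt1 98453_at) give changes smaller than the RNA change may have been, and Kdr gives none.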

Other observations

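Around the endothelium, cells of the vessel wall and the matrix gave further values. Of 6 pericyte genes tested, limma called 0, with 0 higher and 1 lower at an unadjusted p under 0.05, where 0.322% of all probe sets were called and 2.86% and 4.66% were higher and lower unadjusted. That gene was Abcc9, a subunit of potassium channels that cardiomyocytes also express, with a log2 change of -0.55 ± 0.15 (SE, adjusted p = 0.213) and intensities of 108.8 ± 19.3 (SD, n = 9) in sham and 78.3 ± 21.7 (SD, n = 6) in TAC hearts. Rgs5, a pericyte regulator of G-protein signals, had 0.21 ± 0.13 (SE, adjusted p = 0.771 in limma). Kcnj8 had 0.04, Pdgfrb 0.02, Anpep -0.02 and Notch3 -0.10. Of the 6 pericyte genes 3 had changes above 0 and 3 below, with a median of -0.002. Of 8 fibroblast genes tested limma called 0, with 4 higher and 1 lower unadjusted, against the same shares, and a median of 0.25. Lum and Dcn, small proteoglycans of collagen fibrils, had 0.57 ± 0.12 (adjusted p = 0.0585) and 0.51 ± 0.13 (SE, adjusted p = 0.162). Col1a1 had 0.44, Col3a1 0.38 and Pdgfra 0.11, while Thy1 had -0.29 ± 0.12 (SE, adjusted p = 0.531) and Col1a2 and Ddr2 both had -0.03. Of the 9 cardiomyocyte genes tested, 2 had changes above 0 and 7 below, with 0 called, 0 higher and 3 lower unadjusted and a median of -0.06. The 3 were Ryr2 with -0.52 ± 0.13, Ckm with -0.41 ± 0.17 and Myh6 with -0.32 ± 0.13 (SE), at adjusted p of 0.166, 0.555 and 0.559 in limma. Their part in the value of Abcc9 was not tested.

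Lymphatic endothelium was read through Lyve1, Prox1, Flt4 and Reln, of which limma called 0, with 0 unadjusted. Over all probe sets these shares were 0.322% and 7.51%. Prox1, the transcription factor of lymphatic identity, had 0.23 ± 0.13 (SE, adjusted p = 0.740), and Flt4, the receptor for VEGF-C, -0.06 ± 0.11 (SE, adjusted p = 0.937). Of the endocardial genes Npr3 and Nfatc1 were too dim to test. The 3 smooth muscle genes tested were not called, with 0 unadjusted, beside the same shares. Acta2 had -0.44 ± 0.22, Smtn -0.36 ± 0.24 and Tagln -0.18 ± 0.11 (SE), so their median is the value of Smtn. Smtn had -0.84 in females and 0.11 in males. The 4 red cell genes had a median of -0.06, and all probe sets one of -0.03. These genes were chosen by list, and those named within a list were singled out after their values were seen.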
